A study of Mus musculus with 9 samples.

Results

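The apolipoproteins and lipoprotein assembly, represented by 10 of the 56719 genes counted in mouse liver, were followed across saline, concanavalin A injury and injury after faecal transfer. They encode 9 apolipoproteins (Apoa1, Apoa2, Apoa4, Apoa5, Apob, Apoc1, Apoc3, Apoe and Apom) and the microsomal triglyceride transfer protein (Mttp), and were chosen by symbol. All 10 were matched to an Ensembl identifier, and all 10 were among the 17704 genes that passed the filter on low counts. The lowest count of any of them in any library was 749 in Apom and the highest 362032 in Apoe.

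The libraries, 3 per group, came from livers of C57BL/6J mice. WT mice were given phosphate-buffered saline by gavage and by tail vein, and gavage lasted 4 weeks in every group. Con A mice had saline by gavage and then concanavalin A (10 mg/kg) into the tail vein on the day the livers were taken; this plant lectin activates T cells and injures the liver. FMT-Con A mice had the same injection after 4 weeks of gavage with faeces of mice with hepatitis induced by concanavalin A. The labels give no age, no genetic change and no hours between injection and collection. Their growth text calls the mice male and their sample labels female. In the counts Ddx3y, a Y-linked gene, stood at 99.9 to 259 counts per 1000000 (CPM) and Xist, the RNA of the inactive X, at 1.04 to 6.36 in the 9 libraries.

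Apolipoproteins are the protein coat of the particles that carry triglyceride and cholesterol in blood. Hepatocytes build very-low-density lipoprotein on apolipoprotein B, which the transfer protein Mttp loads with lipid in the endoplasmic reticulum. They also secrete apolipoproteins A-I and A-II, the main proteins of high-density lipoprotein, and small exchangeable apolipoproteins that govern how fast lipases and receptors clear the particles.

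Total counts ran from 20513051 to 29466806 per library. CPM were scaled by the library total and its trimmed-mean (TMM) factor, and errors are SD over 3 libraries. The 9 hepatocyte markers were detected in every library and summed to 50200 to 62200 CPM in WT and to 64500 to 74300 in Con A. The FMT-Con A sums were 43000 to 51300. These sums include Fgb, whose mean CPM was 2095 with saline, 18173 after injection alone and 17012 after injection with faecal transfer. Alb, the marker with the highest mean in each group, had means of 38805, 35418 and 19256 CPM in the same order. The sums thus depend in part on Fgb and are not a measure of hepatocyte content. Neutrophil markers summed to 8.9 to 14 CPM in WT libraries and to 192 to 416 in the 6 injected ones. The 12 skeletal muscle markers summed to 3.09 to 8.2 CPM in WT. Con A 1 and 2 had 6.5 CPM or less and Con A 3 had 1610. Sums in FMT-Con A were 14400, 1510 and 14100, so Con A 3 and all FMT-Con A libraries carried muscle transcripts, with Tnnc2 at 0 outside FMT-Con A. Transcripts of the mitochondrial genome took 19.6 to 22.4% of WT counts, 5.03 to 9.96% of Con A counts and 7.44 to 11.7% of FMT-Con A counts. No pair of libraries was closer than FMT-Con A 1 with FMT-Con A 3, which differed by 2.87 times the median chi-square of sampling. FMT-Con A 2 differed from them by 15.1 and 15.3 times. Pairs within WT differed by 3.9 to 6.7 times and pairs within Con A by 11.1 to 20.2 times. The SD of FMT-Con A thus rests on 2 libraries that are much alike and 1 that is not. In these bulk samples, fewer hepatocytes and less RNA per hepatocyte cannot be told apart.

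In Con A vs WT, 8 of the 10 genes passed edgeR's quasi-likelihood test at an adjusted p of 0.05, against 63.4% of all genes tested. Apoa4, Apob and Apom rose (3 of 10, against 32.5% of all genes higher), while Apoa1, Apoa2, Apoc1, Apoc3 and Mttp fell (5 of 10, against 30.9% lower). Apoa5 and Apoe missed the threshold. In FMT-Con A vs Con A, Apob, Apoa4 and Mttp were lower and none was higher, so 3 of 10 passed, against 16.8% of all genes in either direction, 10.6% lower and 6.26% higher. In FMT-Con A vs WT, 7 of 10 passed against 59% of all genes, with Apoa4 higher (1 of 10, against 31.2%) and 6 lower (against 27.9%). The 3 comparisons share libraries and are not independent. Median log2 fold changes of the 10 genes were -0.50, -0.41 and -1.04 in these comparisons, beside 0.01, -0.01 and 0.03 over all genes tested.

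**Figure D1:**
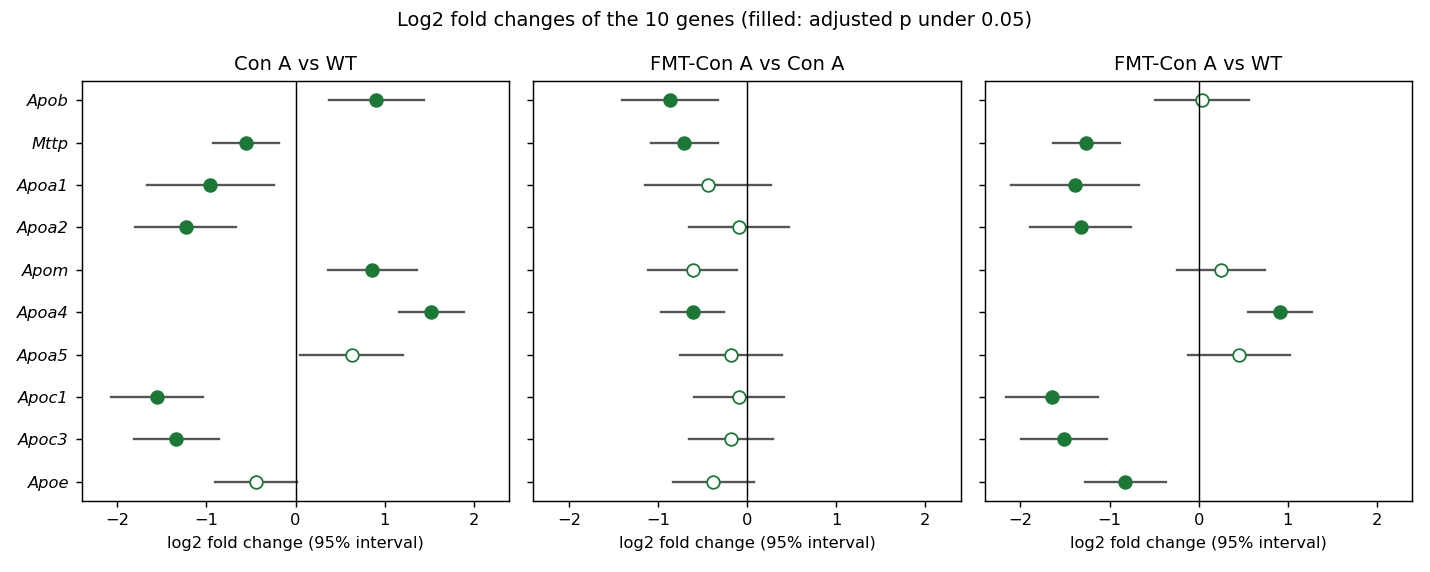
Log2 fold change (x axis, with 95% interval) of each of the 10 genes in 3 comparisons of 3 libraries each; filled circles passed the edgeR adjusted p of 0.05. Apoa4, Apob and Apom lie to the right of 0 and Apoa1, Apoa2, Apoc1, Apoc3 and Mttp to the left in Con A vs WT, and between the injected groups all 10 lie to the left of 0 with 3 filled, though Apoa2, Apoc1 and Apoc3 cross 0 when scaled by total counts.

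The stretches before the start sites of 4 genes are shown because they pair genes that moved oppositely after the injection. Apoa1 and Apoa2 fell while Apoa4 and Apob rose, and Apoa1 and Apoa4 lie in the same cluster. The sequences are the plus strand of RefSeq promoter windows on GRCm38.p6, 5′ to 3′, up to the base before the first annotated start. Capitals mark matches to 6 motifs described with the cluster results.
Apoa1, chr9:46228380-46228579: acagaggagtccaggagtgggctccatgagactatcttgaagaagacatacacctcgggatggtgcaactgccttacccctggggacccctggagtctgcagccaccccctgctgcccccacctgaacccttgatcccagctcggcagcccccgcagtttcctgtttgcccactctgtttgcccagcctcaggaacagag
Apoa2, chr1:171224804-171225053: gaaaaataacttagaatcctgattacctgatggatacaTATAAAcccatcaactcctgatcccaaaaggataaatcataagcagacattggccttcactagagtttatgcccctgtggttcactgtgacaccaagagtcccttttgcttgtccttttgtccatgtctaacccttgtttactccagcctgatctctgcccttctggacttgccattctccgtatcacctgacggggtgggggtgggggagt
Apoa4, chr9:46240594-46240695: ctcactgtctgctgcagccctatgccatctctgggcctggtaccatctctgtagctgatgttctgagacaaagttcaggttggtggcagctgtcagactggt
Apob, chr12:7977427-7977647: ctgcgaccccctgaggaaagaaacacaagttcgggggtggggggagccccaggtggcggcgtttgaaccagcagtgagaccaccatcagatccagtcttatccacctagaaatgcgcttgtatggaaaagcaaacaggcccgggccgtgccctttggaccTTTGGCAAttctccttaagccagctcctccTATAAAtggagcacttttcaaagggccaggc

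Apob, the structural protein of very-low-density lipoprotein, rose after the injection and had a mean near that of WT in FMT-Con A. Its level was 2252, 2282 and 2459.6 CPM in WT libraries 1 to 3. Con A libraries had 4866, 3074 and 5161 CPM, and FMT-Con A libraries 2018, 3039.6 and 2137. By TMM-scaled CPM, Con A lay above WT in every library, FMT-Con A lay below Con A in every library, and FMT-Con A and WT overlapped. The gap was narrow between Con A 2, at 3074 CPM, and FMT-Con A 2, at 3039.6. By library totals these 2 libraries change places, with 63360 of 21772376 counts in Con A 2 and 64021 of 21580482 in FMT-Con A 2. Mean CPM were 2331 ± 112 for WT and 4367 ± 1129 for Con A (log2 fold change 0.91, SE 0.24, n = 3 each, adjusted p = 0.00771 by edgeR). In FMT-Con A it was 2398 ± 559 CPM, a log2 fold change of -0.86 from Con A (SE 0.24, adjusted p = 0.037 by edgeR) and of 0.04 from WT (95% interval -0.49 to 0.57, adjusted p = 0.891 by edgeR). The gene (ENSMUSG00000020609) lies on chromosome 12 at 7977648 to 8016835 of GRCm38, in the GENCODE vM21 annotation used for all positions of genes here.

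Mttp, the partner of Apob in particle assembly, fell in both steps, opposite to Apob in Con A vs WT and in the same direction in FMT-Con A vs Con A. It stood at 173, 161 and 199 CPM in WT, against 129, 96.3 and 137 with Con A and 65.5, 83.4 and 73.5 with FMT-Con A, with no overlap between any of the 3 groups. From WT to Con A the log2 fold change was -0.56 (SE 0.17, adjusted p = 0.0146 by edgeR), and the adjusted p was 0.0573 without WT 3. From Con A to FMT-Con A it was -0.71 (SE 0.17, adjusted p = 0.0226 by edgeR), and from WT to FMT-Con A -1.26 (SE 0.17, adjusted p = 0.000173 by edgeR). Mttp (ENSMUSG00000028158, chromosome 3 at 138089854 to 138144968) shares 7.36% of its exon length with Trmt10a on the other strand, and reads there may be assigned to either. Trmt10a had 222 to 361 reads per library where Mttp had 1757 to 4762.

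**Figure D2:**
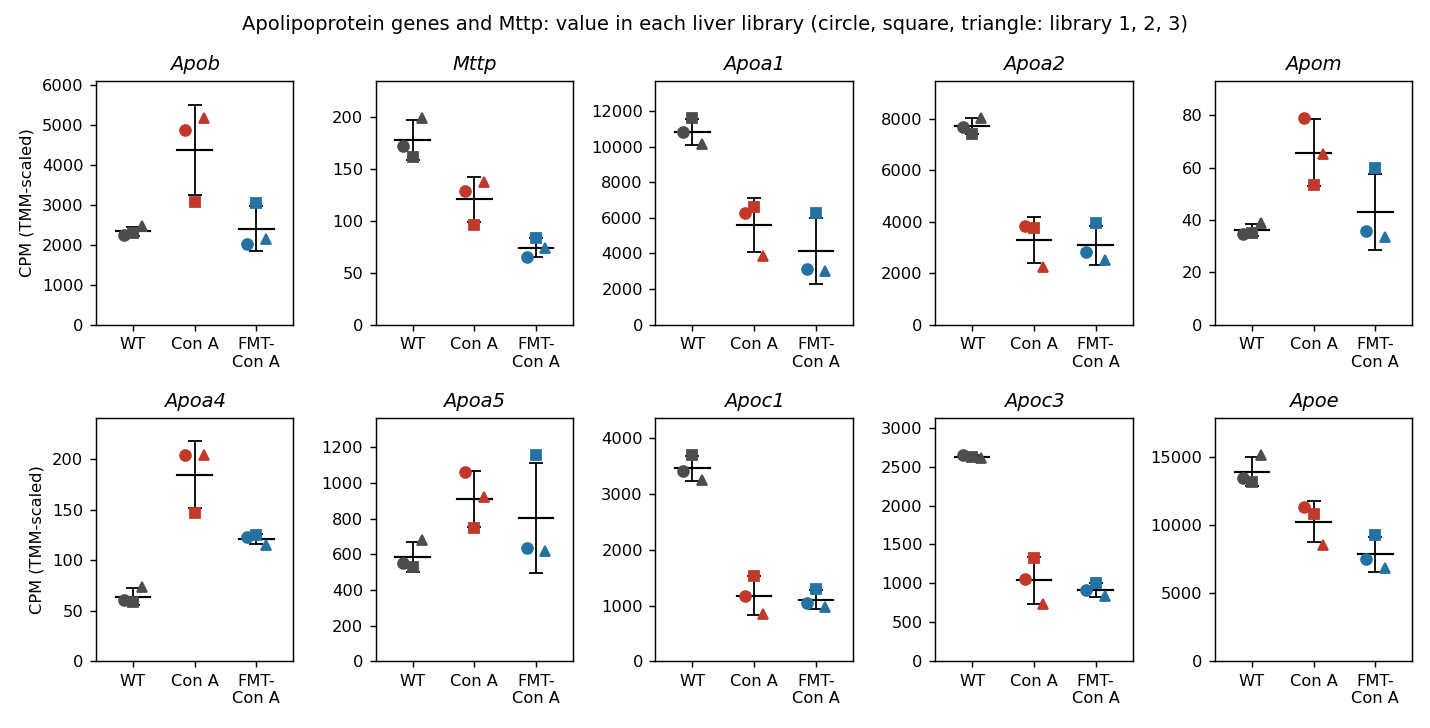
TMM-scaled CPM (y axes from 0, one panel per gene) in each of the 9 libraries, with circles, squares and triangles for libraries 1, 2 and 3, a bar for the mean and whiskers for the SD of 3 libraries. Apoc1 and Apoc3 show all 6 injected libraries far below WT, whereas Apob is above WT in every Con A library, and FMT-Con A 2 stands above FMT-Con A 1 and 3 for Apoa1, Apoa5 and Apom.

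The genes of high-density lipoprotein split. Apoa1 and Apoa2, its main structural proteins, were lower in all 6 injected libraries than in any WT library, and Apom, a lipocalin that carries sphingosine 1-phosphate on the particle, was higher in Con A. Apoa1 read 10799.9, 11599 and 10122 CPM in WT, against 6293, 6636 and 3853 with Con A and 3119, 6266 and 3022 with FMT-Con A. Its log2 fold change was -0.95 in Con A vs WT (SE 0.32, adjusted p = 0.0238 by edgeR) and -1.39 in FMT-Con A vs WT (SE 0.32, adjusted p = 0.00428 by edgeR). The Con A vs WT call was lost without WT 1 (adjusted p = 0.0512 by edgeR), WT 2 (0.0597) or Con A 3 (0.0819). Con A and FMT-Con A overlapped for Apoa1, since FMT-Con A 2 lay among the Con A libraries (log2 fold change -0.44, 95% interval -1.14 to 0.27, adjusted p = 0.358 by edgeR).

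Apoa2 read 7679.9, 7397 and 8015 CPM in WT, against 3839.8, 3748 and 2247 with Con A and 2809, 3934 and 2493 with FMT-Con A. The injected groups overlapped each other and neither overlapped WT. The fall was 2.35-fold in Con A (log2 fold change -1.23, SE 0.25, adjusted p = 0.00191 by edgeR) and 2.5-fold in FMT-Con A (-1.32, SE 0.25, adjusted p = 0.00156 by edgeR). Apom went from 34.8, 35.1 and 38.7 CPM in WT to 78.9, 53.2 and 65 in Con A (log2 fold change 0.86, SE 0.22, adjusted p = 0.00721 by edgeR). FMT-Con A 1 and 3 were at 36 and 33.4 CPM, inside or below the WT range, while FMT-Con A 2 was at 59.9, inside the Con A range. The difference from Con A did not pass with all libraries (log2 fold change -0.61, adjusted p = 0.085 by edgeR) and passed without FMT-Con A 2 (-0.91, adjusted p = 0.00638 by edgeR). Apoa2 (ENSMUSG00000005681) lies on chromosome 1 at 171225054 to 171226379 and Apom (ENSMUSG00000024391) on chromosome 17 at 35128997 to 35132050.

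Apoa4 and Apoa5, apolipoproteins of triglyceride-rich particles of which Apoa5 promotes clearance by lipoprotein lipase, had higher means in Con A than in WT. Apoa4 stood at 60.7, 58.6 and 73.4 CPM in WT, against 204, 147 and 204 with Con A and 123, 125 and 115 with FMT-Con A. None of the 3 groups overlapped, and the FMT-Con A libraries lay between the others. It rose 2.88-fold in Con A (log2 fold change 1.53, SE 0.16, adjusted p = 2.87e-05 by edgeR) and stayed 1.88-fold above WT in FMT-Con A (0.91, SE 0.16, adjusted p = 0.000895 by edgeR). It was lower in FMT-Con A than in Con A (-0.61, SE 0.16, adjusted p = 0.0304 by edgeR), a call lost with scaling by total counts (-0.42, adjusted p = 0.0786 by edgeR). Exons of Gm47528 on the opposite strand cover 34.9% of the exon length of Apoa4. Gm47528 was counted at 131 to 206 reads per WT library, 85 to 147 per Con A library and 116 to 180 per FMT-Con A library, against 1252 to 4932 for Apoa4, and the strand setting of the counting is not given in the sources used here.

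Apoa5 read 550.2, 529 and 683 CPM in WT, against 1061, 749.9 and 922 with Con A and 635, 1158 and 619 with FMT-Con A. All Con A libraries lay above WT by TMM-scaled CPM, but the test did not pass (log2 fold change 0.63, SE 0.26, adjusted p = 0.0543 by edgeR, and 0.0272 by DESeq2). By library totals Con A 2, with 15457 of 21772376 counts, falls below WT 3, with 16344 of 22770276. The highest CPM of Apoa5 was in FMT-Con A 2, and FMT-Con A 1 and 3 were inside the WT range.

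With all libraries, the small exchangeable apolipoproteins Apoc1 and Apoc3 gave the largest falls of the 10 in both injected groups. In FMT-Con A vs WT that order depends on the libraries. With 1 library left out Apoa1 reached -1.81 there, against lowest values of -1.77 for Apoc1 and -1.58 for Apoc3. Apoc1, which hinders receptor uptake of remnants, went from 3413, 3698 and 3253 CPM in WT to 1165, 1534 and 841 with Con A alone and 1049.7, 1297 and 968 with FMT-Con A. Apoc3, an inhibitor of lipoprotein lipase and of particle clearance, went from 2649, 2627 and 2604 CPM in WT to 1054, 1330.3 and 734 with Con A alone and 914, 1012 and 835 with FMT-Con A. For both genes the injected groups overlapped each other and lay wholly below WT. Apoc1 fell 2.93-fold in Con A (log2 fold change -1.55, SE 0.23, adjusted p = 0.000257 by edgeR) and 3.13-fold in FMT-Con A (-1.64, SE 0.23, adjusted p = 0.000239 by edgeR). Apoc3 fell 2.53-fold (-1.34, SE 0.22, adjusted p = 0.000415 by edgeR) and 2.85-fold (-1.51, SE 0.22, adjusted p = 0.000259 by edgeR). Between the injected groups the log2 difference was -0.09 for Apoc1 (95% interval -0.60 to 0.41) and -0.18 for Apoc3 (-0.65 to 0.30).

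Apoe, a ligand for the receptor uptake of remnants, is made by macrophages as well as hepatocytes. It read 13454, 13124 and 15132 CPM in WT, against 11336, 10812 and 8529 with Con A and 7477, 9298 and 6817 with FMT-Con A. Both injected groups lay below WT in every library and overlapped each other. The difference did not pass in Con A vs WT (log2 fold change -0.44, SE 0.20, adjusted p = 0.0808 by edgeR, and 0.0114 by DESeq2) and passed in FMT-Con A vs WT (-0.82, SE 0.20, adjusted p = 0.00637 by edgeR). The 10 Kupffer cell and macrophage markers, all detected in each library, summed to 214 to 318 CPM in WT, 204 to 230 with Con A, and 112, 189 and 112 with FMT-Con A. Of these markers 3 rose and 3 fell in Con A vs WT, against 32.5% of all genes higher and 30.9% lower. In FMT-Con A vs Con A 4 were lower and none higher, against 10.6% of all genes lower and 6.26% higher. The part of macrophages in the level of Apoe was not tested. Enterocytes also make Apoa1, Apoa4, Apob and Mttp: their 10 markers summed to 196 to 260 CPM per library. Most of the sum was Fabp2 (25.2 to 90), Anpep (57.5 to 109.7) and Cdhr5 (77.6 to 104), and Alpi, Sis and Cdx1 had no read in any library. Per library Vil1 had 0 to 7 reads, Lct 0 or 1 and Slc5a1 3 to 25. Cdx2 had 35 reads in Con A 2 and at most 2 in any other library. The part of enterocytes in the 4 genes was not tested.

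The 3 calls in FMT-Con A vs Con A were near the threshold. With 1 library left out the log2 fold changes ranged from -1.06 to -0.72 for Apob, from -0.74 to -0.52 for Apoa4 and from -0.83 to -0.60 for Mttp. All of them stayed below 0. The count of 3 calls dropped to 0 without WT 1, Con A 1, Con A 3, FMT-Con A 1 or FMT-Con A 3, was 1 without WT 2, and reached 5 without FMT-Con A 2. With FMT-Con A 1 and 3 both left out, FMT-Con A is 1 library, assumed to vary like those of the other groups. The count was then 0, and Apob, Apoa4 and Mttp were then at log2 fold changes of -0.52, -0.56 and -0.54 (edgeR adjusted p 0.454, 0.304 and 0.319). For that 1 library against WT, under the same assumption, Apoa1, Apoa2 and Apoe did not pass (edgeR adjusted p 0.125, 0.065 and 0.182), while Apoa5 at a log2 fold change of 0.98 (0.0174) and Apom at 0.73 (0.0311) did. That alternative was chosen after the muscle levels were seen, and the part of muscle RNA in these values was not tested. By TMM-scaled CPM, only Apob, Apoa4 and Mttp of the 10 genes had groups that did not overlap in FMT-Con A vs Con A, against 32.7% of all genes. By library totals the groups overlap for Apob too. In Con A vs WT all 10 did not overlap by TMM-scaled CPM, against 69.8%, and in FMT-Con A vs WT 7 did not, against 69.1%. By library totals Apoa5 overlaps in Con A vs WT. The shares over all genes were taken with TMM scaling only.

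Compared per kilobase of exon, the 10 genes fell into 2 ranges. In WT Apoa2 led with 14334 ± 576 CPM per kilobase, followed by Apoa1 (8770.4 ± 598), Apoe (6503 ± 504), Apoc1 (4643 ± 303) and Apoc3 (2590.4 ± 22.6). Far below came Apoa5 (233 ± 33.1), Apob (167 ± 8.07), Apom (35.7 ± 2.19), Apoa4 (35.4 ± 4.41) and Mttp (28.6 ± 3.12). Apom and Apoa4 did not differ beyond their spread, while the other neighbours down to Apob did. Among the 16802 tested genes with an annotated length, Apoa2, Apoa1 and Apoe ranked 5, 10 and 15 by level per kilobase in WT, and 10, 19 and 16 in Con A. In Con A Apoa2 (6104 ± 1665), Apoe (4783 ± 698) and Apoa1 (4526 ± 1228) did not differ beyond their spread, nor did Apoa5 (361 ± 61.7) and Apob (313 ± 81.1). FMT-Con A had the same order as Con A, from Apoa2 (5734 ± 1410.2) to Mttp (11.9 ± 1.45), with Apoe (3678 ± 601) and Apoa1 (3346 ± 1493) within their spread.

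The 10 genes together held 4.24 to 4.47% of WT counts, 2.12 to 2.67% of Con A counts and 1.85 to 2.56% of FMT-Con A counts. With mitochondrial transcripts, which took more of the WT counts, left out of the totals, they held 5.47 to 5.58%, 2.23 to 2.96% and 2.10 to 2.77%. Within this pool, per kilobase, Apoe gained share, from 17.4 ± 1.22% in WT to 25.7 ± 2.43% with Con A and 23.7 ± 1.94% with FMT-Con A, although its CPM were lower. Apoc1 went from 12.4 ± 0.859% to 8.35 ± 1.13% and 9.56 ± 0.849%, and Apoa1 held 23.5 ± 1.71%, 23.8 ± 1.48% and 20.6 ± 3.8%. Apob went from 0.448 ± 0.0177% to 1.77 ± 0.807% in Con A. The shares are descriptions and must sum to the whole, so a gain of one gene includes the losses of the others.

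**Figure D3:**
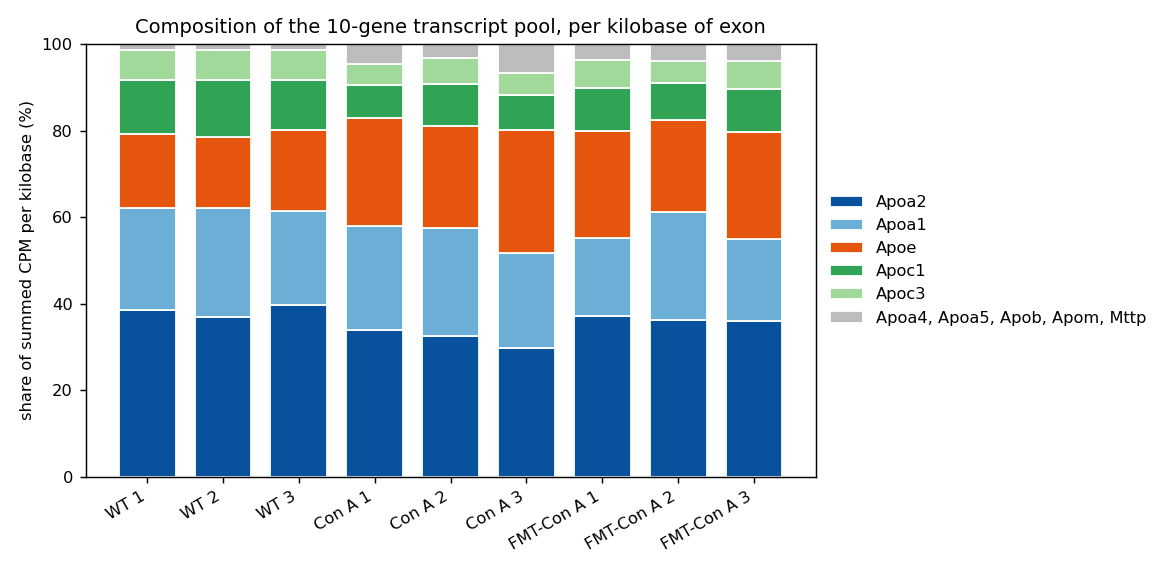
Share of each gene in the summed CPM per kilobase of the 10 genes (y axis, percent, stacked bars), for each of the 9 libraries. The Apoe band widens from 17.4% on average in WT to 25.7% in Con A, while the Apoc1 band narrows from 12.4% to 8.35%.

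Of the 10 genes, 6 lie in 2 clusters. On chromosome 9, Apoa1, Apoc3, Apoa4 and Apoa5 span 43340 bases, and on chromosome 7 Apoc1 and Apoe share 27610 bases with Apoc2 and Apoc4. On chromosome 9 Apoc3 (ENSMUSG00000032081, 46232933 to 46235636, minus strand) fell and Apoa4 (ENSMUSG00000032080, 46240696 to 46243459, plus strand) rose in Con A, with 5059 bases between them. Apoa1 (ENSMUSG00000032083, 46228580 to 46230466), 2466 bases from Apoc3, fell as well, and Apoa5 (ENSMUSG00000032079, 46268633 to 46271919) had a higher mean that did not pass. On chromosome 7 all 4 genes were lower in Con A than in WT, and 3 passed. The lipase cofactor Apoc2 went from 12.9 to 1.24 CPM (log2 fold change -3.37, adjusted p = 2.11e-06 by edgeR) and Apoc4 from 669.9 to 204 CPM (-1.72, adjusted p = 0.0002 by edgeR). Apoc2 had only 254 to 308 reads per WT library and 23 to 28 per Con A library. Overlaps with exons of other genes were examined for the 10 genes only, not for Apoc2 or Apoc4. Apoc1 (ENSMUSG00000040564, 19689481 to 19692660) was at -1.55 and Apoe (ENSMUSG00000002985, 19696109 to 19699188) at -0.44, the one that did not pass.

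**Figure D4:**
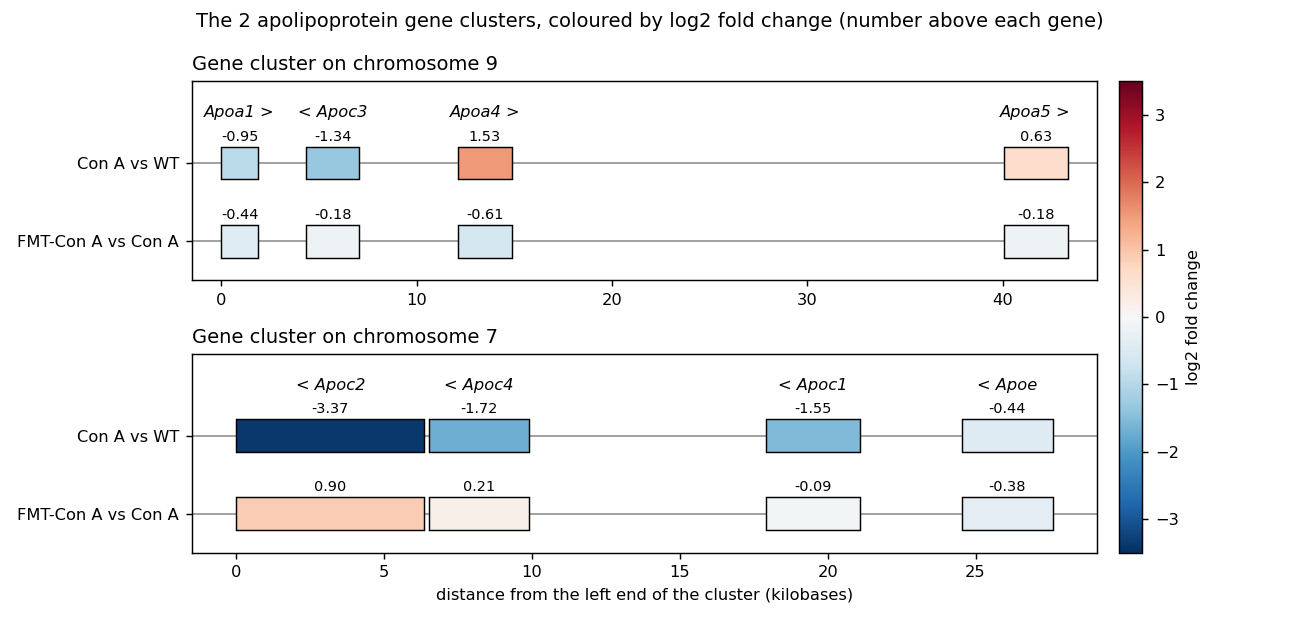
Gene bodies of the clusters on chromosomes 9 and 7, drawn to scale by distance from the left end in kilobases, coloured by log2 fold change, with the value above each gene and arrows for the strand. On chromosome 9 Apoa1 and Apoc3 are negative and Apoa4 and Apoa5 positive in Con A vs WT, while on chromosome 7 all 4 genes are negative.

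Of 9 genes beside the clusters 4 rose and 3 fell in Con A vs WT, against 63.4% of all genes changed in either direction. Relb, a subunit of NF-kappaB beside the chromosome 7 cluster, rose by 4.38 on the log2 scale (adjusted p = 1.37e-06 by edgeR), and Pafah1b2 by 1.25. Zpr1, a zinc finger protein gene beside Apoa5, fell by 1.53 (adjusted p = 4.51e-05 by edgeR) and Tomm40, of the mitochondrial import pore, by 0.62. Between the injected groups, Bcam and Tomm40 were higher and Pafah1b2 lower, against 6.26% of all genes higher and 10.6% lower. The groups overlapped for Bcam, at 18.2 and 18.8 CPM in FMT-Con A 1 and 3, 8.31 in FMT-Con A 2 and 5.05 to 8.37 in Con A. The part of muscle RNA in Bcam was not tested.

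RefSeq windows of 300 bases, from 250 before a start site to 50 after it, were found for 8 of the 10 genes (12 windows), with none for Apoc1 and Apoc3. Both strands were searched for TATAAA (the TATA box), CAAAGTCCA (of the HNF4 type), direct repeats of AGGTCA with 1 or with 4 bases between them (bound by nuclear receptors), TTGCNNAA (of the C/EBP type) and TTCNNNGAA (of the STAT type). TATAAA was in 5 of the 12 windows, against 13.6% of 32817 windows of all genes. The 2 Apoa5 windows among the 5 overlap and hold the same site, so these windows are not independent. The Apoe window with TATAAA belongs to a start 567 bases from the GENCODE start of the gene. Apob holds TATAAA at -60 to -55 from its RefSeq start and TTGCNNAA, on the other strand, at -90 to -83. In the Apoa2 window shown it lies at -212 to -207, and in both Apoa5 windows it was found as well. TTGCNNAA was in 2 windows of these genes (10.8% of all windows). The other 4 motifs were in 0 of the 12 windows, and are in 0.475%, 0.0396%, 0.0152% and 8.29% of all windows in the order given. No matches of different motifs overlapped. In 1 Apoe window the 2 TATAAA matches, on opposite strands, overlap each other. The letters are a description of these windows and do not show binding.

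The exon lengths of the genes that fell and of those that rose overlapped. Apoa2 and Apoc1, which fell, have 537 and 744 bases of exon, and Apob, which rose, has 13934. Across the 16802 tested genes with an annotated length the median log2 fold change in Con A vs WT was -0.44 for exon lengths up to 1000 bases (1610 genes), -0.18 above that and up to 2000, 0.05 above that and up to 4000, and 0.09 for longer genes. These classes were set after the values were seen. For FMT-Con A vs Con A the same classes were at 0.15, 0.08, 0.02 and -0.07. Among genes with a mean of at least 100 CPM the medians were -0.46, 0.16, 0.38 and 0.34 in Con A vs WT and 0.06, -0.13, -0.27 and -0.26 in FMT-Con A vs Con A, from the shortest class to the longest. Mttp, with 6206 bases, fell, and Apom and Apoa4, with 1013 and 1815, rose. The part of transcript length in these values was not tested.

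Of 11 other apolipoproteins tested, 3 rose and 3 fell in Con A vs WT, with a median log2 fold change of 0.01. The shares over all genes, 32.5% higher and 30.9% lower, were near this count. Clu, clusterin, an extracellular chaperone also known as apolipoprotein J, went from 382 to 1976 CPM (2.37 on the log2 scale, SE 0.25, adjusted p = 2.44e-05 by edgeR), with 357 to 428 in the WT libraries and 1705 to 2172 in Con A. Apon rose by 0.80 and Apoh by 0.68. Apol7a fell from 156 to 14.9 CPM (-3.38, adjusted p = 1.33e-06 by edgeR), as did Apoc2 and Apoc4. Between the injected groups Apol9a was lower (-0.71, adjusted p = 0.0293 by edgeR) and Apoc2 higher (0.90, adjusted p = 0.0297 by edgeR), at 1.24 CPM in Con A and 2.3 in FMT-Con A. The other 9 did not pass, where 10.6% of all genes were lower and 6.26% higher.

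Of 22 assembly and secretion genes, 8 rose and 7 fell in Con A vs WT (median 0.07, all genes 32.5% higher and 30.9% lower). Apobec1, the enzyme that edits Apob mRNA to the short form, went from 47 to 250.3 CPM (2.41 on the log2 scale, SE 0.21, adjusted p = 8.22e-06 by edgeR) and was lower in FMT-Con A, at 138 CPM (-0.86, adjusted p = 0.0219 by edgeR). No WT library exceeded 60.5 CPM, no Con A library was below 213, and the FMT-Con A libraries lay at 136 to 142. P4hb, protein disulphide isomerase and the subunit that pairs with Mttp, rose by 1.38 (adjusted p = 4.81e-05 by edgeR) where Mttp fell. The coat GTPases of secretory vesicles parted, with Sar1a rising by 1.07 (adjusted p = 1.64e-05 by edgeR) and Sar1b falling by 0.86 on the log2 scale (adjusted p = 0.00122 by edgeR). Lpcat3, which makes polyunsaturated phospholipid for the particle surface, fell by 1.80 (adjusted p = 6.85e-06 by edgeR). Dgat2, an enzyme of triglyceride synthesis, was lower in FMT-Con A than in Con A (-0.95, adjusted p = 0.0089 by edgeR) and Sort1 higher (2.20, adjusted p = 0.0201 by edgeR). Of the 22, 19 did not pass in that comparison, where 10.6% of all genes were lower and 6.26% higher. Sort1 stood at 3.92 and 4.85 CPM in FMT-Con A 1 and 3, where muscle markers were highest, and at 1.38 in FMT-Con A 2, inside the WT range of 0.549 to 1.46. The part of muscle RNA in it was not tested.

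Of 12 remodelling genes 3 rose and 3 fell in Con A vs WT (median 0.30, all genes 32.5% higher and 30.9% lower). Lcat, which esterifies cholesterol on high-density lipoprotein, rose from 237 to 424 CPM (0.84, SE 0.15, adjusted p = 0.000769 by edgeR). Pnpla2 rose by 1.39 and Furin by 0.78. Lower in FMT-Con A than in Con A were 4, namely Lipc, the hepatic lipase (-1.09, adjusted p = 0.00746 by edgeR), Furin, Lipg and Angptl8, and Lpl was higher. Over all genes 10.6% were lower there and 6.26% higher. Lpl, lipoprotein lipase, stood at 491 and 509.8 CPM in FMT-Con A 1 and 3 but at 97.1 in FMT-Con A 2 and 113 in Con A 3, the 4 libraries with muscle markers above 1000 CPM. The part of muscle RNA was not tested.

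Of 17 receptor and sterol transporter genes 7 rose and 3 fell in Con A vs WT (median 0.69, all genes 32.5% higher and 30.9% lower). Abca1, which loads lipid onto apolipoprotein A-I, rose from 189.7 to 692 CPM (1.87 on the log2 scale, SE 0.19, adjusted p = 2.31e-05 by edgeR) while Apoa1 fell. Lsr rose by 2.06, and Lrp8 rose from 0.241 to 1.29 CPM. Abcg5 and Abcg8, the subunits of the biliary sterol exporter, fell by 1.80 and 1.66. Scarb1, the receptor for high-density lipoprotein, rose by 1.25 (adjusted p = 0.00253 by edgeR). From Con A to FMT-Con A, Abca1 (-0.83, adjusted p = 0.0187 by edgeR), Abcg1 and Abcg8 were lower and Cd36 was higher, against 10.6% of all genes lower and 6.26% higher. Cd36, a fatty acid transporter, was at 159 and 172 CPM in FMT-Con A 1 and 3, 76.9 in FMT-Con A 2 and 15.8 to 46.5 in Con A, highest where the muscle markers were, whose part was not tested.

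Of 23 regulators of apolipoprotein genes 9 rose and 8 fell in Con A vs WT (median -0.05, all genes 32.5% higher and 30.9% lower). Hnf4a, the nuclear receptor that drives many apolipoprotein genes, rose from 393 to 639 CPM (0.70 on the log2 scale, SE 0.20, adjusted p = 0.0107 by edgeR), in Con A libraries of 503 to 762 CPM against 337 to 440.3 in WT. The largest change was in Jun, an AP-1 subunit, which rose by 4.68 (adjusted p = 3.83e-07 by edgeR). Nr0b2, the repressor SHP, fell by 4.23 and Foxa2 by 2.93 on the log2 scale, and Mlxipl, the carbohydrate-response factor ChREBP, fell by 2.75. Between the injected groups 6 were lower and Foxa2 was higher (1.74, adjusted p = 0.00218 by edgeR), against 10.6% of all genes lower and 6.26% higher. Nr1d1, the clock repressor REV-ERB alpha, a known repressor of Apoc3, stood at 87.3 to 162 CPM in Con A, 11.8 to 13.9 in FMT-Con A and 7.97 to 15.3 in WT. In Con A vs WT its log2 fold change was 3.54 and that of Apoc3 -1.34. In FMT-Con A vs Con A it was -3.26 (adjusted p = 0.00147 by edgeR), and Apoc3, at -0.18, did not pass. The part of Nr1d1 in the level of Apoc3 was not tested.

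**Figure D5:**
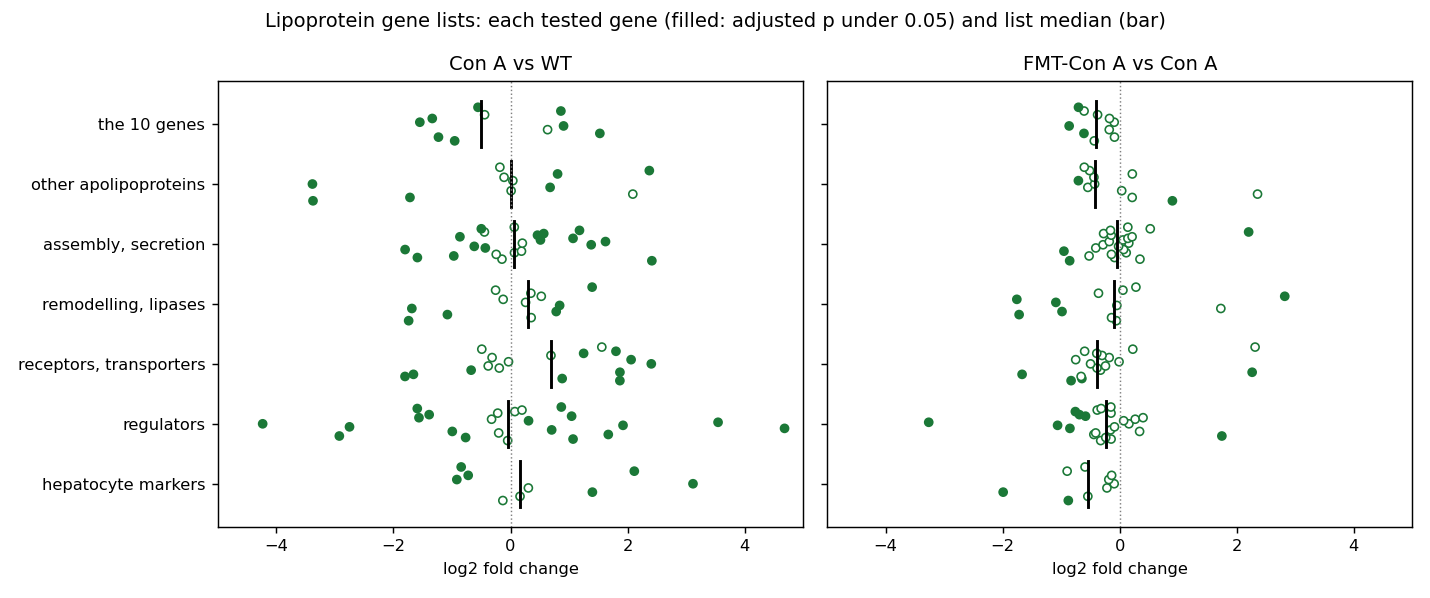
Log2 fold changes (x axis) of every tested gene in the 10-gene set and in 5 related lists and the hepatocyte markers, for injury against saline and for FMT-Con A against Con A; filled points passed the edgeR adjusted p of 0.05 and bars are list medians. In Con A vs WT most lists hold filled points on both sides of 0, and in FMT-Con A vs Con A most points are open.

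Against WT, FMT-Con A had 3 of the 11 other apolipoproteins higher and 6 lower, 7 and 7 of the 22 assembly genes, 3 and 4 of the 12 remodelling genes, 7 and 5 of the 17 receptors and transporters, and 8 and 10 of the 23 regulators. Over all genes 31.2% were higher and 27.9% lower. Apon, at 667 CPM against 329, was among the higher and Abcg8, at 7.22 against 72.1, among the lower.

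Of the 9 hepatocyte markers 3 rose and 3 fell in Con A vs WT, near the shares over all genes of 32.5% higher and 30.9% lower. Alb, albumin, did not pass (log2 fold change -0.13, adjusted p = 0.593 by edgeR). From Con A to FMT-Con A, Alb (-0.88, adjusted p = 0.0221 by edgeR) and Cps1 (-1.99, adjusted p = 0.00651 by edgeR) were lower and 7 did not pass, where 10.6% of all genes were lower. With TMM scaling all 9 log2 fold changes were below 0 in that comparison, with a median of -0.55, as were those of the 10 lipoprotein genes, with a median of -0.41. Other scalings were not run for the markers. Those values stand beside the lower Apob, Apoa4 and Mttp, and their part in them was not tested.

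In the main fit Apoc1 had the largest absolute log2 fold change of the 10 in Con A vs WT (-1.55, SE 0.23). It was closely followed by Apoa4 (1.53, SE 0.16), a difference within the SE. Apoc1 was set against all tested genes by Pearson correlation of log2 CPM over the 9 libraries. The closest genes were Echdc2 (r = 0.9986), Apoc3 (r = 0.996) and Limd2 (r = 0.9959). Echdc2 stood at 397 CPM in WT, 126 in Con A and 117 in FMT-Con A. These correlations describe 9 libraries that fall into 3 groups and carry no test.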

How the data were processed

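Polyadenylated RNA of mouse liver was sequenced in 9 libraries. Per the labels, the deposited values are raw read counts per gene, 1 file per library, made with CASAVA, HISAT2 and featureCounts on GRCm38 (mm10), per the submitters' processing notes. Versions, annotation release and strand setting are not given in the sources used here. Of 56719 genes, 52083 were paired with a symbol in GENCODE vM21, and 1360 gene models without an Ensembl identifier held 1.43 to 1.98% of counts.

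One model over the 9 libraries was fitted with edgeR 4.0.16 (R 4.3.3), with TMM scaling, filterByExpr (minimum count 10, minimum total 15), the quasi-likelihood F test, two-sided, and Benjamini-Hochberg adjustment over 17704 genes at 0.05. This left 6 residual degrees of freedom. SE was taken from each fold change and its F statistic. Log2 CPM for the correlation used a prior count of 2. Alternatives were other scalings, DESeq2 1.42.0, no filter, 2 groups only, a replicate block, left-out libraries and library sizes without mitochondrial and muscle genes. The fit was tested on simulated counts.

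Members and lists were chosen with earlier results of these data known. Named are all members and, per list and comparison, up to 4 genes with the lowest p and those of opposite direction. Length classes and the fit without FMT-Con A 1 and 3 were added after the data were seen. Apon, Apoh, Sar1b, Abcg8, Scarb1 and Hnf4a were named after their values were seen. Some genes the rule would name are not reported here. Lpa matched no symbol. The labels number the replicates but do not say how the libraries of a group were made. The p-values therefore speak only of the spread among the libraries given, which may be technical.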

Additional observations from a re-analysis of the deposited data

How the results depend on the processing

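Over 18 alternatives, Con A vs WT gave the 10 genes 180 log2 fold changes, of which 0 changed direction, 4 dropped out of the threshold and 11 entered it. With DESeq2 all 10 genes passed, as did 11365 of the 17704 genes tested. The call count kept within 1.5 times of 8, between 7 and 10 with 1 library left out, when 9937 to 12101 of all genes passed. In FMT-Con A vs WT the count was 7 throughout and 6 with FMT-Con A 1 and 3 both left out, when 6957 of all genes passed, against 10449. That setting leaves FMT-Con A with 1 library, assumed to vary like those of the other groups, here and wherever it is named.

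FMT-Con A vs Con A lost the most calls. Fitted on the 2 groups only, 0 of the 10 genes and 1156 of all genes passed, against 3 and 2981. With FMT-Con A 1 and 3 both left out (1 FMT-Con A library) these were 0 and 99. With 1 library left out they ranged from 0 to 5 and from 664 to 4053. The other scalings (by total counts or upper quartile) moved the median of all genes by 0.19 and 0.10 on the log2 scale, and by -0.19 and -0.20 in Con A vs WT. Among called genes the share higher in FMT-Con A vs Con A went from 37.2% to 65.4% and 51.7%, and it was 47.1% without FMT-Con A 2 and 22.7% without FMT-Con A 1.

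Directions turned where differences had not passed. In FMT-Con A vs Con A, scaling by totals gave Apoa2 0.09, Apoc1 0.09 and Apoc3 0.01, and the upper quartile gave Apoa2 0. With FMT-Con A 1 and 3 both left out, so from 1 FMT-Con A library, Apoa1 was at 0.17, Apoa2 0.27, Apoa5 0.35 and Apoc1 0.14. With 1 library left out Apoa2 ranged from -0.30 to 0.06, Apoc1 from -0.29 to 0.16 and Apoc3 from -0.37 to 0.06. In FMT-Con A vs WT Apob was at -0.07 by the upper quartile and -0.16 to 0.17 with 1 library left out, and Apom ranged from -0.06 to 0.42. The causes were not tested.

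The labels do not say that the replicate numbers pair the libraries. Correlations of same-numbered deviations ran from -0.053 to 0.1 in Con A vs WT, where 4 of 6 libraries correlated best with their own number. They ran from -0.216 to 0.344 in FMT-Con A vs Con A (2 of 6) and from 0.021 to 0.071 in FMT-Con A vs WT (3 of 6). With the replicate block 8, 2 and 7 of the 10 genes passed in Con A vs WT, FMT-Con A vs Con A and FMT-Con A vs WT, and 11093, 2663 and 10207 of all genes. Apob was the call lost, in FMT-Con A vs Con A (edgeR adjusted p = 0.0663), and it was lost there with the upper quartile too (0.0515). Scaling by totals lost Apoa4 there (-0.42, edgeR adjusted p = 0.0786). By the length of the longest transcript Apoe ranked 1 and Apoa2 2 per kilobase in Con A, and Mttp ranked above Apom and Apoa4 in WT.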
